A study of Homo sapiens with 4 samples.

Results

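Cells build cholesterol and fatty acids from acetyl-CoA with a set of enzymes whose genes are switched on together. To describe these genes across drug exposure and resistance in prostate cancer cells, 32 named genes of the pathway were taken by symbol from the 33538 genes of a single-cell RNA sequencing series. They were 4 regulators, 19 genes of the sterol branch and 9 genes of the fatty acid branch, and all 32 symbols were found. The series held 4 libraries of LNCaP, an androgen-sensitive line from a human prostate cancer metastasis, and of lines derived from it, each group being 1 library without replicates.

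The LNCaP library came from parental cells given 0.1% DMSO, the solvent, for 48 h. The LNCaP-ENZ48 library came from the same parental line given 10 µM enzalutamide (ENZ), a drug that blocks the androgen receptor, for 48 h. RES-A and RES-B were ENZ-resistant lines derived from LNCaP, by long culture in ENZ for RES-A and in the related blocker RD-162 for RES-B, and both were kept in 10 µM ENZ. Each resistant line stands for 1 derivation from 1 patient's tumor line. Drug, derivation, passage and library therefore cannot be told apart. The growth medium of all groups held serum, an outside source of cholesterol and fatty acids.

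After filtering, 14727 cells were kept, between 1782 (LNCaP) and 4569 (RES-A) per library, with 50208831 to 60838227 unique molecular identifiers (UMIs, each standing for 1 captured RNA molecule) per library. The LNCaP cells were the deepest, with a median of 27079.5 UMIs against 12138 to 13676 in the other libraries, and the median mitochondrial share was 9.78% in LNCaP and 12.2% in RES-B. Between 2 and 9 cell barcodes were shared by any pair of libraries. Of 7 prostate luminal markers, 7 were at 10 CPM (counts per 1000000 UMIs of the library) or more in LNCaP, LNCaP-ENZ48 and RES-B and 6 in RES-A, where KLK3 was at 0.035 CPM. Of 10 markers of basal, stromal, immune and endothelial cells, 0 reached 10 CPM in any library, 5 to 7 were at 0 UMIs, and their summed level was 1.99 to 4.54 CPM.

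Transcription of the pathway is set by the SREBP factors, made from the genes SREBF1 and SREBF2. They are held in the endoplasmic reticulum with their escort SCAP by the INSIG proteins while sterols are plentiful, and are carried to the Golgi and cut free when sterols fall. SREBF2 is known mainly for the sterol genes and SREBF1 for the fatty acid genes, and in prostate cancer cells androgens are known to raise both branches.

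Promoters of 28 of the 32 genes were in the RefSeq table (GRCh38.p14), which holds 27303 genes with 35114 windows of 250 bases before to 50 bases after a start. FDFT1, SQLE, ACAT2 and FASN were not matched. The CCAAT pentamer that NF-Y binds, a factor known to act beside SREBPs, was found on either strand in the windows of 21 of the 28 genes (75%), against 39.7% of all genes of the table. It was found in 14 of 16 sterol branch genes and 5 of 8 fatty acid branch genes. The GC box GGGCGG was found in 27 of the 28 genes (96.4%, all genes 48.3%) and the E-box CACGTG in 4 (14.3%, all genes 8.78%). The sterol response element core, searched as TCACNCCAC on both strands, was found in 1 of the 28, SREBF2 (3.57%, all genes 1.39%). None of these motifs contains another, and a match is only a run of letters in the window.

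The 250 bases before the start are shown for SREBF2, which holds the sterol response element core, for 4 genes that were over 1.5-fold higher in RES-B and hold a CCAAT box, and for ELOVL6, which had the highest ratio of the 32 genes in RES-B and holds no CCAAT box. Each is written on the strand of its gene. Capitals mark the CCAAT box or its reverse complement and, in SREBF2 only, also the sterol response element core TCACCCCAC, whose first base lies at -133 from the start.
SREBF2, chr22:41832855-41833104, plus strand: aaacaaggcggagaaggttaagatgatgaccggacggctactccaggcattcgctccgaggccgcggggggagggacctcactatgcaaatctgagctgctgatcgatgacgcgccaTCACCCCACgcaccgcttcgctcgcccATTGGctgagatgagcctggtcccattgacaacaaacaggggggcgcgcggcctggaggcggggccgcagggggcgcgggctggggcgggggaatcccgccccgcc
INSIG1, chr7:155297628-155297877, plus strand: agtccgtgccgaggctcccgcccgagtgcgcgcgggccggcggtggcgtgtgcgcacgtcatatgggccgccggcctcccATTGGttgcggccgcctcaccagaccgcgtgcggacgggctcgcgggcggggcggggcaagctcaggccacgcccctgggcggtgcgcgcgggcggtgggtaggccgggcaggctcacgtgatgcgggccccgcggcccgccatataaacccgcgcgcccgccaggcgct
FDPS, chr1:155308616-155308865, plus strand: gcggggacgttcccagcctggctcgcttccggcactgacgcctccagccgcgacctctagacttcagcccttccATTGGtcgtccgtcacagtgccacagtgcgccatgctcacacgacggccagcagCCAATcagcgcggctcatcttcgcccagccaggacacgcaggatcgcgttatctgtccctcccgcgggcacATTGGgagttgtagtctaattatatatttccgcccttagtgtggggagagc
MSMO1, chr4:165327419-165327668, plus strand: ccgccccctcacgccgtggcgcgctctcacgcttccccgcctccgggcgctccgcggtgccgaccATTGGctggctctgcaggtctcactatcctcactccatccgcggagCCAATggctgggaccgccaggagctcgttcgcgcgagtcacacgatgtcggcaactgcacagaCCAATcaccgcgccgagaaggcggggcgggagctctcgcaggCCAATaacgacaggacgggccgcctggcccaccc
SCD, chr10:100346983-100347232, plus strand: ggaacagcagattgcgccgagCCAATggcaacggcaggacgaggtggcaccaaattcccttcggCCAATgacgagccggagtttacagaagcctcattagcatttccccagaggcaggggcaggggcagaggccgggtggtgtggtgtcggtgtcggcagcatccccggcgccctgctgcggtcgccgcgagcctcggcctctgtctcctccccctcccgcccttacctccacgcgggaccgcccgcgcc
ELOVL6, chr4:110198616-110198865, minus strand: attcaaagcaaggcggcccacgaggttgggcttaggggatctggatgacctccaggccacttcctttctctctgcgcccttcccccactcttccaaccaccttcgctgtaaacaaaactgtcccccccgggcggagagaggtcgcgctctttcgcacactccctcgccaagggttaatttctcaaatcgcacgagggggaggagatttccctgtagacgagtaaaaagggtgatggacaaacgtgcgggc

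The 32 genes together made up 1399 CPM in LNCaP (exact Poisson 95% interval 1389 to 1410) and 1403 in LNCaP-ENZ48, against 1654 in RES-A and 2031 in RES-B (2018 to 2043). The sterol gene TM7SF2, the most abundant of them, made up 160.4, 276, 301 and 223 CPM of these sums in the same order. The like sums of LNCaP and LNCaP-ENZ48 thus rest in part on this gene. The sterol branch was at 769 CPM in LNCaP and 1146 in RES-B, and the fatty acid branch at 509.97 and 756 CPM. Most single genes had their highest level in RES-B too. RES-B was the highest library for 24 of the 32 genes and LNCaP-ENZ48 the lowest for 20, as the plot of levels by library shows. Such orders were not counted over all genes. The median log2 ratio of all genes to LNCaP leaned the same way, at 0.11 in RES-B and -0.07 in LNCaP-ENZ48. Of 96 pairs of neighbours in these orders, 24 lay within counting error of each other, 9 of them LNCaP and LNCaP-ENZ48.

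**Figure D1:**
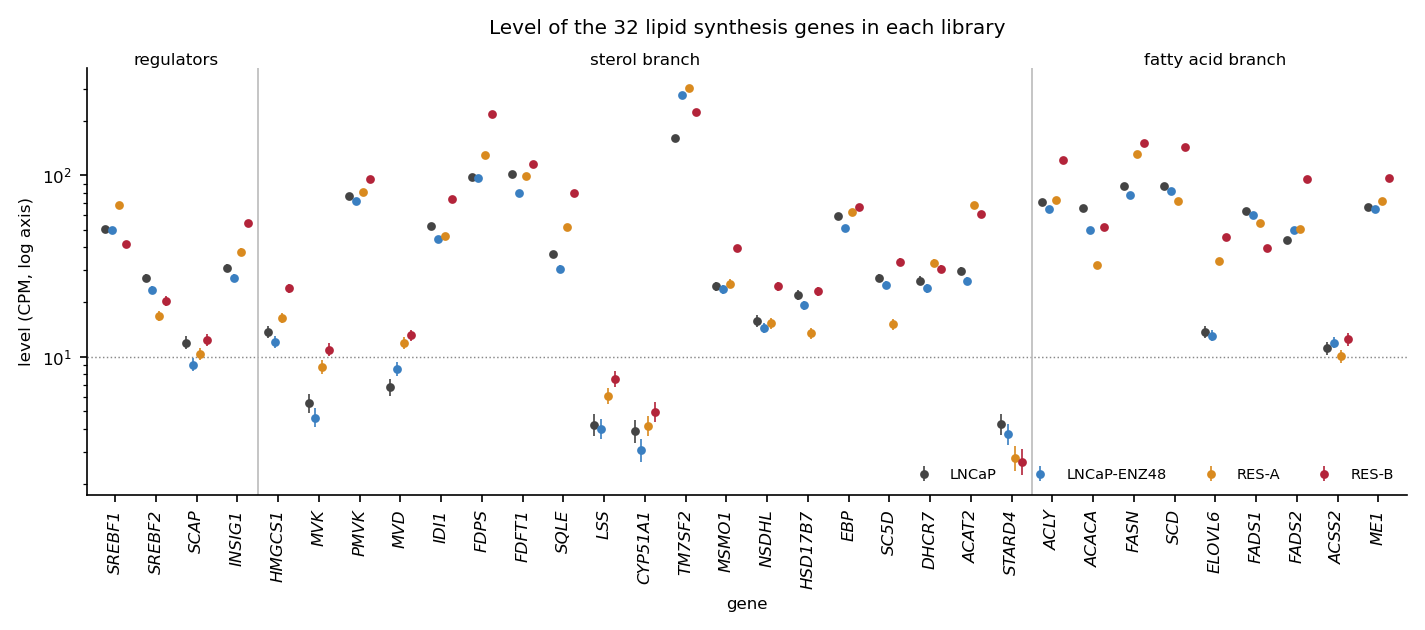
Level of each of the 32 genes (CPM, log axis) in the 4 libraries, grouped by role; points are summed UMIs over the kept cells and bars are exact Poisson 95% intervals for counting error, with the dotted line at 10 CPM. RES-B (red) is the highest library for 24 genes and LNCaP-ENZ48 (blue) the lowest for 20, which was not counted over all genes.

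Ratios below are log2 ratios of CPM with exact conditional binomial 95% intervals in brackets, which cover counting error only. With 1 library per group no test was possible, so a gene is called higher or lower when its ratio is at least 1.5-fold and its mean level in both libraries is at least 10 CPM. The first 3 comparisons share the LNCaP library. MVK, MVD, LSS, CYP51A1 and STARD4 stayed under that mean level in each comparison with LNCaP, so 27 of the 32 genes entered those counts.

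After 48 h of ENZ the pathway was nearly level. Of 27 genes, 1 was called higher (0.796% of 7282 genes in all) and 0 lower (3.30% of all genes). The median of the 27 genes was -0.13, against -0.07 over all genes. With TMM scaling the share of all genes called was 1.33% higher and 2.17% lower, and the median of the 27 genes was -0.04. Values below 0 were found for 24 of the 27 genes with CPM scaling and 16 with TMM scaling. A common direction of the small values was thus not stable to scaling.

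The gene called higher was TM7SF2, a sterol reductase of late cholesterol synthesis, which was at 160.4 CPM in LNCaP and 276 in LNCaP-ENZ48, against 301 in RES-A and 223 in RES-B. All 3 ENZ-exposed libraries were above LNCaP, by 0.78 [0.75, 0.82], 0.91 [0.87, 0.94] and 0.47 [0.43, 0.52]. TM7SF2 lies at chr11:65111845-65116384 on the plus strand (GENCODE 44, GRCh38) and overlaps VPS51 on the same strand, so reads from the overlap cannot be assigned to 1 gene. VPS51 was at 72.3 CPM in LNCaP and 81.8 in LNCaP-ENZ48, a ratio of 0.18 [0.12, 0.24]. The values farthest below 0 after ENZ belonged to ACACA (-0.41 [-0.48, -0.34]), the acetyl-CoA carboxylase that commits carbon to fatty acids, to SCAP (-0.40 [-0.57, -0.24]) and to FDFT1, squalene synthase (-0.36 [-0.42, -0.30]). None of these 3 reached 1.5-fold.

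With the cell limits set for each library, the resistant lines differed from each other. In RES-A, 3 of 27 genes were called higher (11.6% of 7428 genes in all) and 4 lower (11.3% of all genes), with a median of 0.07 against 0.02 over all genes. In RES-B, 12 of 27 were called higher (14.4% of 7570 genes in all) and 1 lower (8.14% of all genes), with a median of 0.49 against 0.11 over all genes. With TMM scaling, which lowered the median of all genes in RES-B by 0.11, the shares of all genes in RES-B were 10.4% higher and 11.2% lower, 11 of the 12 genes were still called higher, and 6 of the 27 lay below 0 in place of 4. Set directly against RES-A, RES-B had 11 of 28 genes called higher (11.9% of 7508 genes in all) and 1 lower (5.87% of all genes). The median was 0.43 against 0.09. Kept LNCaP cells held over 16000 UMIs and cells of the other libraries over 5000. In limits shared by all libraries the counts were closer, with 8 called higher in RES-A (15.9% of all genes) and 10 in RES-B (19.7%). RES-B against RES-A then had 7 called higher (12.6%) and 2 lower (6.02%).

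**Figure D2:**
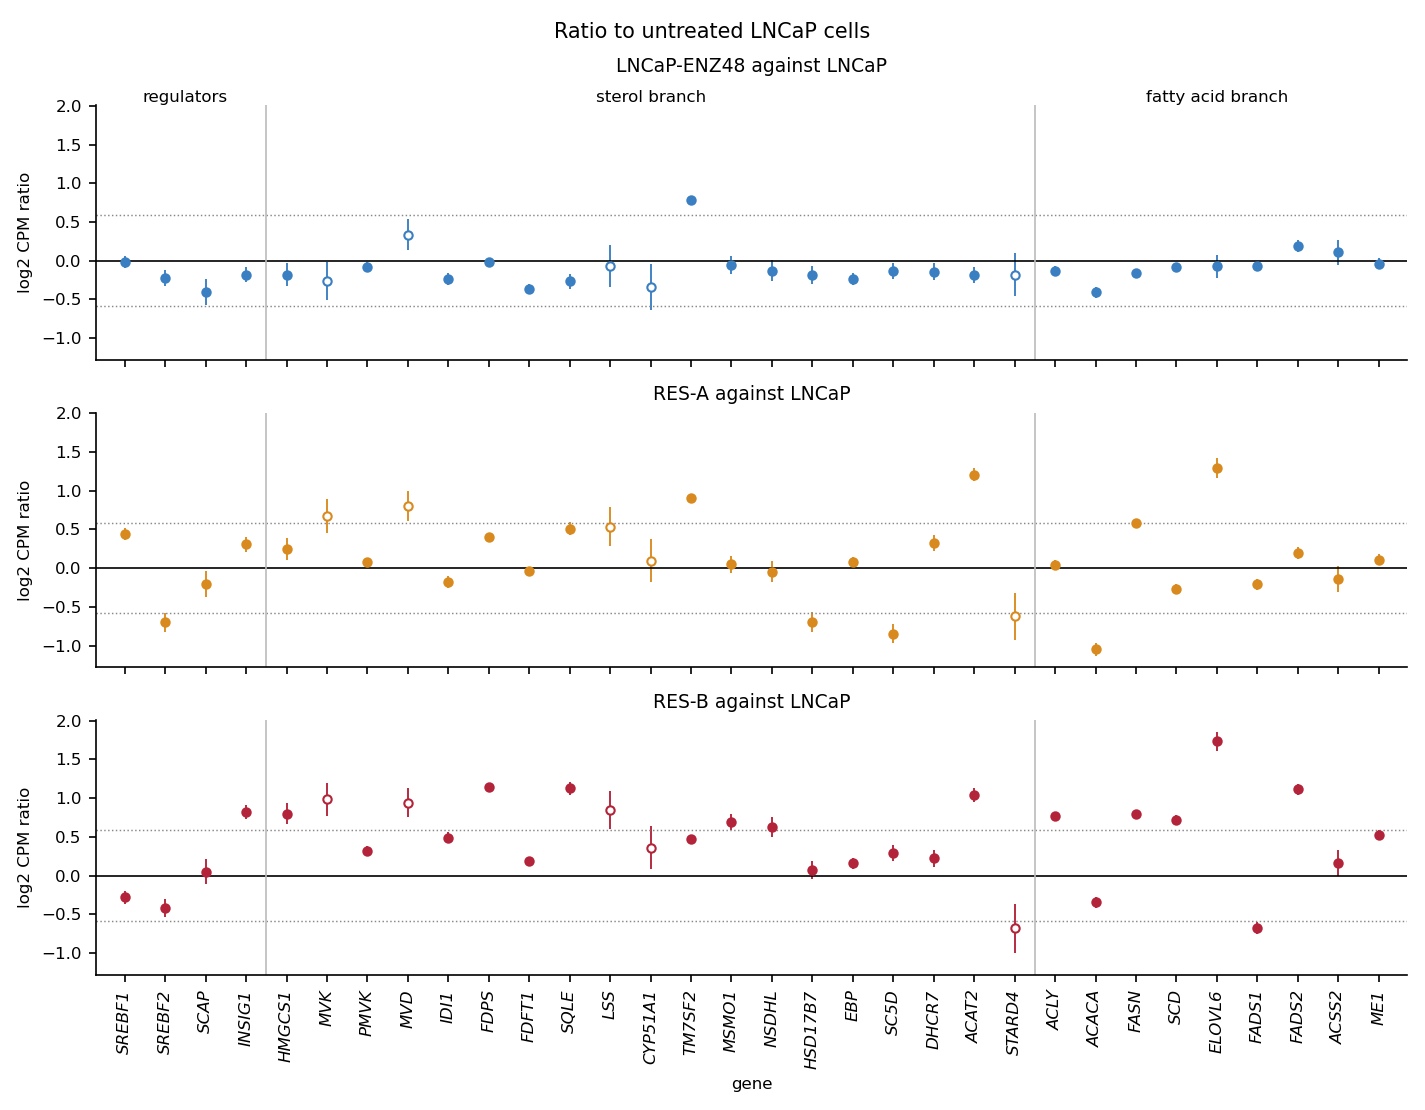
Log2 CPM ratio of each of the 32 genes to LNCaP for the other 3 libraries; bars are 95% intervals for counting error, dotted lines mark 1.5-fold, and open points are genes with a mean level under 10 CPM. The RES-B points lie mostly above 0, with 12 of 27 filled points past the upper line (14.4% of all genes), while the RES-A points lie on both sides. In cell limits shared by all libraries, not drawn here, 10 genes passed it in RES-B (19.7% of all genes) and 8 in RES-A (15.9%).

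Among the regulators, the transcription factor genes were not the ones that were higher in RES-B. SREBF1 was at 50.5 CPM in LNCaP and 49.95 in LNCaP-ENZ48, against 68.6 in RES-A and 41.5 in RES-B. RES-A was thus the highest library and RES-B the lowest, with ratios to LNCaP of 0.44 [0.37, 0.51] and -0.28 [-0.37, -0.20]. SREBF2 was at 27.2, 23.3, 16.8 and 20.3 CPM in the same order of libraries, below LNCaP in all 3. SREBF2 was called lower in RES-A (-0.70 [-0.82, -0.58]; -0.41 in the cell limits shared by all libraries), and in RES-B it was at -0.42 [-0.54, -0.30].

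INSIG1, which retains SCAP and is itself a known SREBP target, was at 30.7 CPM in LNCaP and 27.1 in LNCaP-ENZ48, against 37.99 in RES-A and 54.2 in RES-B. It was the regulator called higher in RES-B, at 0.82 [0.73, 0.91]. SCAP was at 11.97, 9.04, 10.4 and 12.4 CPM, and in RES-B it did not differ from LNCaP beyond counting error (0.05 [-0.11, 0.21]).

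In the sterol branch, 6 of 14 genes were called higher in RES-B (14.4% of all genes) and 0 lower (8.14% of all genes). The median was 0.48. The highest was FDPS, which makes farnesyl pyrophosphate, at chr1:155308748-155320666 on the plus strand. It was at 97.4 CPM in LNCaP and 96.3 in LNCaP-ENZ48, against 129 in RES-A and 216 in RES-B. RES-B stood apart from the other libraries at 1.15 [1.10, 1.20] over LNCaP, or 2.22-fold, and RES-A lay between at 0.41 [0.36, 0.46].

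SQLE, squalene epoxidase, an oxygen-dependent and rate-limiting step, had a like order, with 36.6, 30.5, 52.2 and 79.9 CPM in LNCaP, LNCaP-ENZ48, then RES-A, then RES-B. Its ratio was 0.51 [0.43, 0.59] in RES-A and 1.13 [1.05, 1.21] in RES-B. HMGCS1, the cytosolic HMG-CoA synthase, was at 13.7, 12.1, 16.3 and 23.8 CPM, with 0.80 [0.66, 0.93] in RES-B.

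MSMO1, a sterol methyl oxidase, was at 24.4, 23.5, 25.3 and 39.5 CPM, and NSDHL, which acts after it on lanosterol products, at 15.8, 14.4, 15.3 and 24.4 CPM. RES-B alone stood above the other libraries for both. MSMO1 (0.69 [0.59, 0.80]) and NSDHL (0.63 [0.50, 0.76]) were called higher in RES-B and stayed at LNCaP's level within counting error in RES-A (0.05 [-0.06, 0.16] and -0.04 [-0.18, 0.10]).

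ACAT2, the cytosolic acetoacetyl-CoA thiolase, was higher in both resistant lines, with 29.8 CPM in LNCaP and 26.3 in LNCaP-ENZ48, against 68.9 in RES-A and 61.4 in RES-B. Ratios to LNCaP were 1.21 [1.12, 1.30] and 1.04 [0.95, 1.13]. ACAT2 overlaps TCP1 on the opposite strand, and TCP1 was at 0.17 and 0.04 in the same comparisons.

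SC5D and IDI1 lay on opposite sides of LNCaP in the resistant lines. SC5D, a late sterol desaturase, was at 27.1 CPM in LNCaP and 24.7 in LNCaP-ENZ48, against 15.1 in RES-A and 33.3 in RES-B, so that RES-A was the lowest library and RES-B the highest. Its ratio was -0.85 [-0.97, -0.72] in RES-A and 0.30 [0.19, 0.40] in RES-B. IDI1, isopentenyl diphosphate isomerase, was at 52.7, 44.7, 46.5 and 73.9 CPM in the same order, below LNCaP in RES-A (-0.18 [-0.26, -0.10]) and above it in RES-B (0.49 [0.42, 0.56]). HSD17B7, the sterol ketoreductase, was at 21.8, 19.2, 13.5 and 23.0 CPM. It was called lower in RES-A (-0.70 [-0.83, -0.56]; -0.52 in the shared cell limits) and lay within counting error of LNCaP in RES-B (0.07 [-0.05, 0.19]).

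The remaining sterol genes above the minimum level were closer to LNCaP in RES-B, at 0.31 for phosphomevalonate kinase PMVK, 0.22 for DHCR7, 0.18 for FDFT1 and 0.16 for EBP, the last 3 being enzymes of squalene formation and of the final sterol steps. Of the 5 genes under the minimum level, MVK (5.54, 4.62, 8.82 and 10.96 CPM) and MVD (6.81, 8.58, 11.9 and 13.1 CPM), both of the mevalonate steps, were highest in RES-B, as were LSS and CYP51A1 at up to 7.55 and 4.98 CPM. STARD4, a sterol carrier, was at 4.24 CPM in LNCaP and 2.64 in RES-B.

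In the fatty acid branch, 5 of 9 genes were called higher in RES-B (14.4% of all genes) and 1 lower (8.14% of all genes). The median was 0.72. ELOVL6, which lengthens palmitate, had the highest ratio of the 32 genes. It lies at chr4:110045846-110199199 on the minus strand and was at 13.7 CPM in LNCaP and 13.1 in LNCaP-ENZ48, against 33.5 in RES-A and 45.6 in RES-B. Both resistant lines were above both parental libraries, at 1.29 [1.16, 1.42] and 1.73 [1.61, 1.86] over LNCaP, or 2.44-fold and 3.33-fold.

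SCD, the desaturase that makes oleate, was at 87.1, 82.2, 72.1 and 144 CPM in LNCaP, LNCaP-ENZ48, then RES-A, then RES-B. It was below LNCaP in RES-A (-0.27 [-0.33, -0.21]) and above it in RES-B (0.72 [0.67, 0.78]). FASN, fatty acid synthase, was at 87.2, 77.8, 131 and 151 CPM, with 0.58 [0.53, 0.64] in RES-A, just under 1.5-fold, and 0.79 [0.74, 0.85] in RES-B. ACLY, which supplies cytosolic acetyl-CoA, was at 71.0, 64.8, 73.0 and 121 CPM. It lay within counting error of LNCaP in RES-A (0.04 [-0.02, 0.11]) and was called higher in RES-B (0.77 [0.71, 0.83]).

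ACACA was below LNCaP in all 3 libraries, with 65.9 CPM in LNCaP and 49.7 in LNCaP-ENZ48, against 31.8 in RES-A and 51.8 in RES-B. LNCaP was the highest library and RES-A the lowest, at -1.05 [-1.13, -0.97]. The neighbouring desaturase genes FADS1 and FADS2, which make polyunsaturated fatty acids in turn, also parted. FADS2 was at 43.9, 50.1, 50.3 and 94.99 CPM and FADS1 at 63.2, 60.2, 54.8 and 39.6 CPM, so RES-B was the highest library for FADS2 and the lowest for FADS1.

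In RES-B the ratio was 1.11 [1.04, 1.19] for FADS2 and -0.67 [-0.76, -0.59] for FADS1, the gene called lower. The annotated span of FADS2 (chr11:61792980-61867354, plus strand) encloses FADS1 on the opposite strand and overlaps FEN1 on the same strand, so the level of FADS2 is uncertain where reads overlap. FEN1 was at 23.3 CPM in LNCaP and 25.3 in RES-B, a ratio of 0.12 [0.01, 0.23]. ME1, malic enzyme, a source of NADPH, was at 67.0 CPM in LNCaP and 96.4 in RES-B (0.52 [0.46, 0.59]), and ACSS2, which activates acetate, lay within counting error of LNCaP in both resistant lines (-0.14 [-0.31, 0.03] and 0.16 [-0.0002, 0.33]).

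Some of these calls depended on the limits set on cells. In the window of gene, UMI and mitochondrial limits shared by all libraries, which kept 639 to 1229 cells each, 8 genes were called higher (15.9% of all genes) and 2 lower (12.9% of all genes) in RES-A. In RES-B, 10 were called higher (19.7% of all genes), 9 of them shared with the 12 above, and 0 lower (8.57% of all genes). SCD then stood at 0.44, MSMO1 at 0.53, NSDHL at 0.48 and FADS1 at -0.46 in RES-B, each under 1.5-fold. In RES-A, SREBF2 (-0.41) and HSD17B7 (-0.52) were then no longer called lower, and FASN (0.77), SQLE (0.76), FDPS (0.73), ME1 (0.64) and INSIG1 (0.62) were called higher.

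Other genes of the pathway were counted as lists, beside the shares of all genes called in RES-A (11.6% higher, 11.3% lower) and RES-B (14.4% higher, 8.14% lower). Of the other regulators of SREBP processing, 2 of 8 were called higher in RES-B, and the highest was INSIG2, the second retention protein, at 15.2 CPM in LNCaP and 21.3 in LNCaP-ENZ48, against 33.2 in RES-A and 134 in RES-B. Its ratio was 1.13 [1.00, 1.25] in RES-A, below ELOVL6 and ACAT2. In RES-B it was 3.14 [3.03, 3.25], above that of each of the 32 genes. In RES-A, 2 of the 8 were called higher too. The lowest in RES-B was ERLIN2 (-0.38). The median of the 8 was 0.33 in RES-A, 0.04 in RES-B and -0.08 in LNCaP-ENZ48, and in the last INSIG2 was the highest (0.49) and UBE2G2 the lowest (-0.26).

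Of 14 to 15 expressed genes for other sterol and isoprenoid steps, 0 were called higher and 1 lower in RES-A, and 2 higher and 1 lower in RES-B. HSD17B12, a ketoreductase of long-chain fatty acid elongation, was the lowest in RES-A, at 34.1 CPM in LNCaP against 6.37 (-2.42 [-2.59, -2.26]). PDSS1 was the highest in RES-A (0.52), and NUS1 (0.91) and FNTA (-0.75) were the ends of the list in RES-B. Of cholesterol transport genes and liver X receptor targets, 0 of 11 were called in RES-A and 2 of 13 were called higher in RES-B, led by NPC1, which exports cholesterol from lysosomes, at 4.96 CPM in LNCaP and 28.0 in RES-B (2.50 [2.30, 2.69]). NPC1 was at 12.6 CPM in RES-A (1.34 [1.13, 1.56]), where a mean level under 10 CPM kept it out of the count, so these counts give no contrast between the lines for this gene. OSBPL2 (0.46) and OSBP (-0.38) were the ends in RES-A and GRAMD1A (-0.39) the lowest in RES-B.

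Of 20 genes for other lipid synthesis, 2 were called higher in each resistant line, with 4 lower in RES-A and 3 in RES-B, so the genes called higher were no larger a share than over all genes. MGLL, a monoacylglycerol lipase, was the lowest in both, at -1.86 [-2.06, -1.66] and -2.03 [-2.25, -1.81]. DGAT2, which makes triacylglycerol, was the highest in RES-A (1.21 [1.06, 1.36]) and MLXIP in RES-B (1.25 [1.16, 1.34]). For NADPH supply, 3 of 10 genes were called higher in RES-A, led by PGLS (0.92), and 1 in RES-B, IDH1 (0.79), with MTHFD2 the lowest in both (-0.40 and, called lower, -0.89).

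Fatty acid oxidation, the opposing pathway, was counted the same way. Of its 16 expressed genes, 3 were called higher in RES-A (11.6% of all genes) and 8 in RES-B (14.4% of all genes), with 0 lower in either, and the median was 0.25 and 0.56. ACAA2, a mitochondrial thiolase, was the highest in RES-B (1.44 [1.30, 1.59]) and DECR1 in RES-A (1.05 [0.97, 1.13]), while CPT1A was at -0.56 in RES-B and ACADVL at -0.38 in RES-A. The androgen-induced genes were far below LNCaP in all 3 libraries, with medians of -2.21, -3.80 and -2.78 over 8 genes and 7, 7 and 6 of them called lower. In RES-A, KLK3 was at 2 UMIs, and in RES-B 1 of the 8, NDRG1, was called higher (0.78).

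After 48 h of ENZ, 0 genes of these lists were called higher (0.796% of all genes). Over all genes, 3.30% were called lower. Called lower there were 2 of 13 genes for other sterol and isoprenoid steps, with the lamin B receptor LBR, also a sterol reductase, the lowest (-0.64 [-0.72, -0.56]), and 3 of 20 genes for other lipid synthesis, with the elongase ELOVL5 the lowest (-0.90 [-0.99, -0.81]). Among transport genes, NADPH supply and fatty acid oxidation 0 were called, with medians of -0.01, 0.06 and 0.08.

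Set directly against RES-A, RES-B had 11.9% of all genes called higher and 5.87% lower, and the lists are given beside these shares. Of 8 other regulators, 1 was called higher, INSIG2 (2.02 [1.94, 2.09]). Called lower were 2 of them, with ERLIN2, an INSIG-binding membrane protein, the lowest (-1.001). Of the genes for other sterol and isoprenoid steps, 3 of 15 were called higher and 0 lower, led by HSD17B12 (2.08 [1.91, 2.25]), and of transport genes 3 of 12 and 0, led by NPC1 (1.15 [1.02, 1.28]). For other lipid synthesis the counts were 4 higher and 2 lower of 19, for NADPH supply 0 and 2 of 10, for fatty acid oxidation 2 and 0 of 16, and for androgen-induced genes 5 and 0 of 6.

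To see whether the genes moved together from cell to cell, a random 5000 UMIs of each cell were used, so that depth was equal in all libraries. Correlations were computed within each library over the 19 genes at 20 CPM or more in all 4 libraries (171 pairs), of which 10 are sterol genes, 7 fatty acid genes and the others SREBF1 and INSIG1. They are descriptions over 1782 to 4569 cells of 1 library each, and cells share the culture, the library and the thinning. Most values were weak, and the counts were sparse. INSIG1, for example, had a mean of 0.135 (LNCaP-ENZ48) to 0.289 (RES-B) UMIs per thinned cell.

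The highest of the 171 correlations in every library was that of FASN with SCD, at 0.156 in LNCaP and 0.111 in LNCaP-ENZ48, against 0.0948 in RES-A and 0.249 in RES-B. In RES-B it was followed by SCD with FADS2 (0.237), INSIG1 with SCD (0.224) and ACLY with SCD (0.197). The median over fatty acid pairs was 0.0408, 0.0335, 0.0272 and 0.0659 in LNCaP, LNCaP-ENZ48, then RES-A, then RES-B, and over sterol pairs -0.000755, 0.0144, 0.00914 and 0.0320. Over 8859945 pairs of all 4210 genes at the same level, the median was 0.000814 to 0.00134 in the 4 libraries.

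The 95th percentile of those pairs was 0.0446, 0.0307, 0.0289 and 0.0322. It was highest in LNCaP, the library with the fewest cells (1782), so the counts below rest on unlike cutoffs. The percentile was passed by 30, 55, 46 and 90 of the 171 pairs in LNCaP, LNCaP-ENZ48, then RES-A, then RES-B. These were 17.5%, 32.2%, 26.9% and 52.6%. Sparse counts limit r, and some of these genes had higher means in RES-B, such as SCD at 0.768 UMIs against 0.430 in LNCaP. Covariance over the product of the means takes level into account. Its median for fatty acid pairs was 0.168, 0.131, 0.0754 and 0.267 in the same order. For sterol pairs it was 0.00338, 0.0689, 0.0284 and 0.167. For pairs across both branches it was 0.0381, 0.0903, 0.0610 and 0.0998, with RES-B close to LNCaP-ENZ48. INSIG1 was tied to both branches in RES-B, with 0.170 for FDFT1 and 0.169 for FDPS beside its value for SCD. TM7SF2 and PMVK stood outside this pattern, with a highest correlation in RES-B of 0.0295 and 0.0241.

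**Figure D3:**
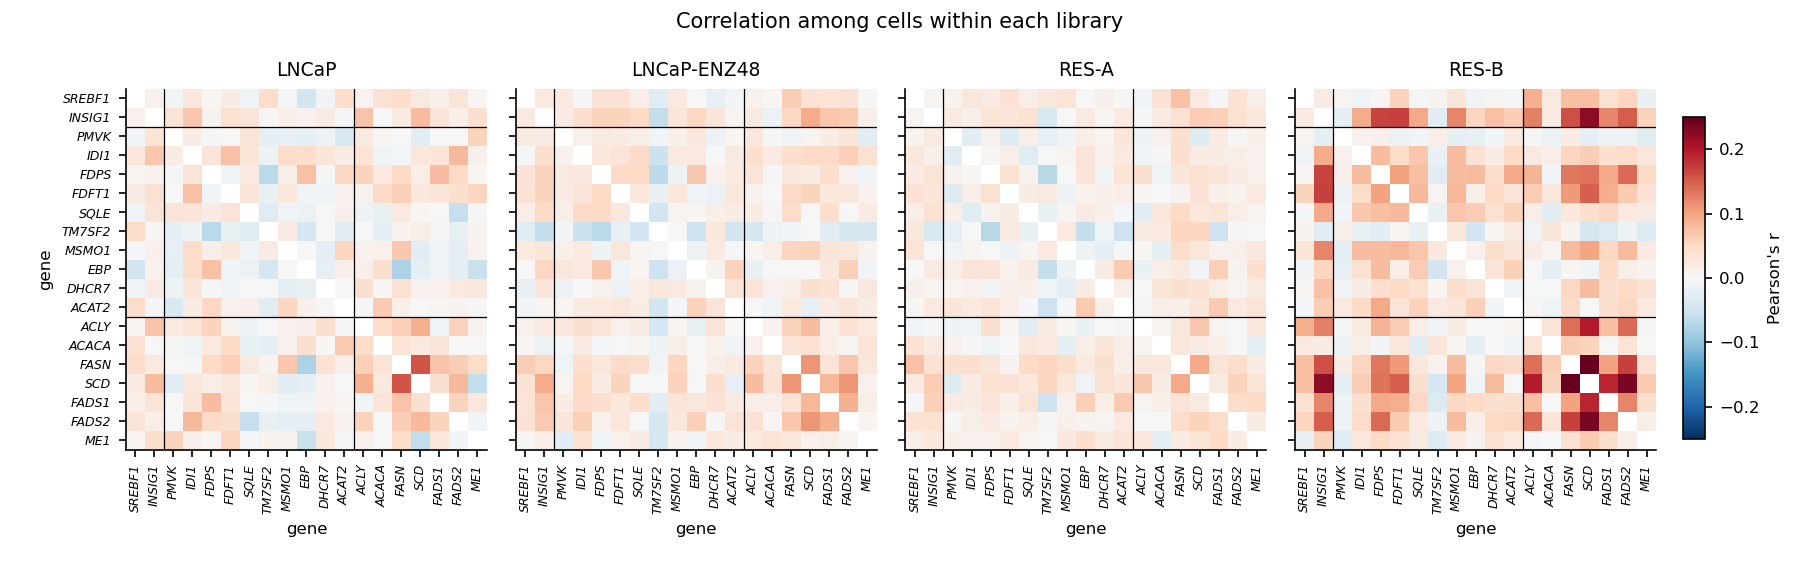
Pearson's r among cells between 19 of the genes within each library, every cell thinned to 5000 UMIs; black lines part regulators, sterol branch and fatty acid branch, and the diagonal is left blank. The red block of fatty acid genes and the red INSIG1 row are strongest in RES-B, where FASN with SCD reaches 0.249.

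The covariation in RES-B came with a tail of cells with high sums. The 7 fatty acid genes summed to a mean of 2.39 UMIs per thinned cell in LNCaP and 2.24 in LNCaP-ENZ48, against 2.36 in RES-A and 3.61 in RES-B. Their variance over the mean, which is 1 for pure counting, was 1.63, 1.80, 1.29 and 3.29, and for the 10 sterol genes 1.11, 1.20, 1.21 and 1.80. Sums of at least 10 fatty acid UMIs were found in 5.25% of RES-B cells (exact binomial 95% interval 4.58% to 5.98%), against 0.673% (0.348% to 1.17%) in LNCaP, 0.695% (0.470% to 0.991%) in LNCaP-ENZ48 and 0.0438% (0.00530% to 0.158%) in RES-A. The cutoff was the same in all libraries and RES-B had the highest mean, so these shares mix level with spread.

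**Figure D4:**
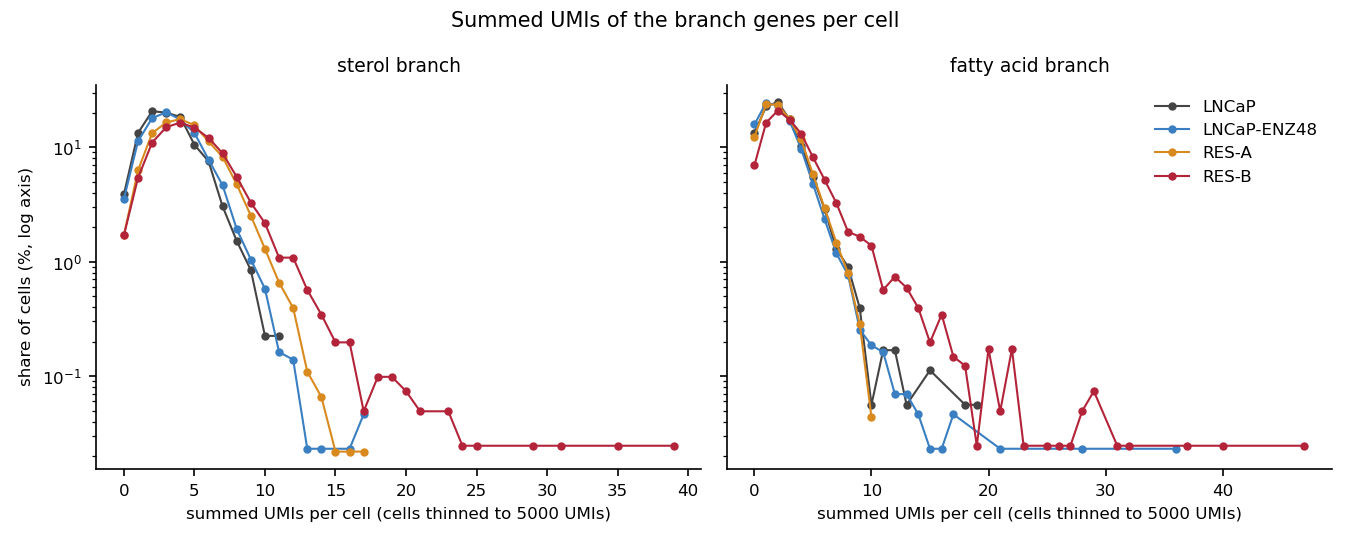
Share of cells (%, log axis) by the summed UMIs of 10 sterol and 7 fatty acid genes per cell, every cell thinned to 5000 UMIs, in the 4 libraries. The RES-B curve (red) runs farthest right in both panels, with 5.25% of cells at 10 or more fatty acid UMIs.

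The sums of both branches were weakly tied within a cell, with r of 0.0636 in LNCaP and 0.0483 in LNCaP-ENZ48, against 0.125 in RES-A and 0.163 in RES-B. Across cells, the sterol sum had an r of 0.0531 to 0.165 with the full depth of a cell. With mitochondrial UMIs it was -0.00215 to 0.0228, and the part of both in the covariation was not tested. TM7SF2 made up 0.810 of the mean sterol sum of 3.31 UMIs for LNCaP and 1.36 of 3.59 for LNCaP-ENZ48. Its part was 1.48 of 4.43 UMIs for RES-A and 1.10 of 4.97 for RES-B. Yet its r with the other sterol genes was -0.0718, -0.0843, -0.0574 and -0.00701 in this order of libraries. Each result for the sterol sum thus rests in part on this gene, with unlike weight by library, and that part was not tested. When cells were ranked by the sterol sum, INSIG1 was at 36.3 CPM in the lowest 1015 of 4061 RES-B cells and 101 CPM in the highest 1015, a ratio of 1.47 [1.23, 1.72]. In the other libraries that ratio was 0.62 in LNCaP, 0.57 in LNCaP-ENZ48 and 0.48 in RES-A. SREBF1 was at 0.43 [0.14, 0.72] in RES-B.

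Outside the 32 genes, 1902 genes at 50 CPM or more in each library were ranked by their lowest correlation with the sterol sum over the 4 libraries. The first 10 were TALDO1, TUBB4B, AGTRAP, ATP1B1, ETFB, NUCB2, BLVRB, ATP6V0B, DDT and SDF2L1. Their lowest values were 0.0319 to 0.0438, so no gene was closely alike in all libraries.

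The fatty acid sum went weakly with androgen-induced genes in LNCaP, LNCaP-ENZ48 and RES-B. Its r with their summed UMIs was 0.141 in LNCaP, 0.130 in LNCaP-ENZ48 and 0.200 in RES-B, and -0.0157 in RES-A. In RES-A KLK3 was nearly absent while FKBP5, also of this list, was at 17.9 CPM, and their part in the value was not tested. For the sterol sum the r with androgen-induced genes was slightly below 0 in all 4 libraries. It was -0.0410 in both parental libraries, -0.0203 in RES-A and -0.0170 in RES-B. In a split chosen after these values were seen, cells were parted by whether they held a UMI of KLK2 or KLK3. Both are kallikrein genes induced by androgens and belong to the summed list, so the split restates that correlation in part and adds no separate support. Its intervals cover counting error and leave out the spread between cells. In RES-B, 666 of 4061 cells held such a UMI. Their median full depth was 12599.5 UMIs, against 12244 in the others.

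SCD was at 238 CPM in the RES-B cells with a kallikrein UMI and 137 in those without (0.80 [0.68, 0.91]). FADS1 differed by 0.54, SREBF2 by 0.54 [0.19, 0.88], FASN by 0.53, FADS2 by 0.50, INSIG1 by 0.49 and SCAP by 0.38 [-0.08, 0.82]. Over 7596 genes the median was -0.01 and the 5th and 95th percentiles were -0.34 and 0.33. Sterol genes lay on both sides of 0, with FDFT1 at 0.29 [0.14, 0.44], FDPS at 0.18 [0.06, 0.29] and HSD17B7 at -0.32 [-0.73, 0.07]. The median was 0.30 over fatty acid genes and -0.03 over sterol genes. In LNCaP-ENZ48 the same split gave a fatty acid median of 0.12, with 0.45 for SCD, 0.42 for FASN and 0.46 for ACLY and a 95th percentile of 0.29 over all genes.

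In LNCaP the fatty acid median was -0.03, with genes on both sides of 0. FASN was at 0.40 [0.14, 0.67] and SCD at 0.23 [-0.03, 0.49], while FADS2 was at -0.22 [-0.56, 0.14], ACLY at -0.16 [-0.43, 0.11] and FADS1 at -0.11 [-0.39, 0.17], and the 95th percentile over all genes was 0.39.

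Some of the genes followed the cell cycle. Phases were called from marker lists, and the share called G1 was 72.2% in LNCaP and 82.4% in LNCaP-ENZ48, against 68.7% in RES-A and 73.8% in RES-B. EBP, the sterol isomerase, was at 41.2 to 53.7 CPM in G1 cells and 78.0 to 97.2 in G2/M cells over the 4 libraries. Its ratio of G2/M to G1 was 0.58 [0.28, 0.88] in LNCaP and 1.24 [1.02, 1.45] in LNCaP-ENZ48, against 1.14 [0.96, 1.32] in RES-A and 0.74 [0.54, 0.93] in RES-B.

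ACAT2 and FADS1 were likewise higher in G2/M than in G1 in all 4 libraries, by 0.54 to 1.14 and 0.42 to 1.06. TM7SF2 had the opposite pattern, with -1.11 [-1.36, -0.86], -1.23 [-1.40, -1.07], -1.23 [-1.35, -1.11] and -1.01 [-1.16, -0.86] in LNCaP, LNCaP-ENZ48, then RES-A, then RES-B. SCD and FASN were lower in G2/M in all 4 as well, at -0.89 to -0.30 and -0.95 to -0.41. In G1 cells alone, TM7SF2 was at 0.69 in LNCaP-ENZ48 against LNCaP, so its difference was also present within 1 phase.

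Because derived lines can differ in copy number, each gene was set beside the 50 nearest expressed genes on its chromosome, or fewer near a chromosome's end. In RES-B against LNCaP these neighbours had medians from -0.84 (around FDFT1 on chromosome 8) to 0.63 (around ME1 on chromosome 6), and 23 of 32 genes lay above their neighbours, with a median difference of 0.54 over the 32. In RES-A, 19 of 32 did, with a median difference of 0.07. Such counts were not made over all genes. FDFT1 was at 0.18 in RES-B while its 38 neighbours had a median of -0.84 and quartiles of -1.09 and -0.69. ME1 (0.52), PMVK (0.31) and HSD17B7 (0.07) were below their neighbours (0.63, 0.37 and 0.33).

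The genes with the highest ratios in RES-B did not lie among raised neighbours to the same extent. ELOVL6 was at 1.73 with neighbours at -0.05, FADS2 at 1.11 with neighbours at -0.17, and FDPS at 1.15 with neighbours at 0.32. SQLE was at 1.13 with neighbours at 0.15, and ACAT2 at 1.04 with neighbours at 0.22. SC5D, lower in RES-A at -0.85, lay among neighbours at -0.40. Copy number was not measured here, and its part in these values was not tested.

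**Figure D5:**
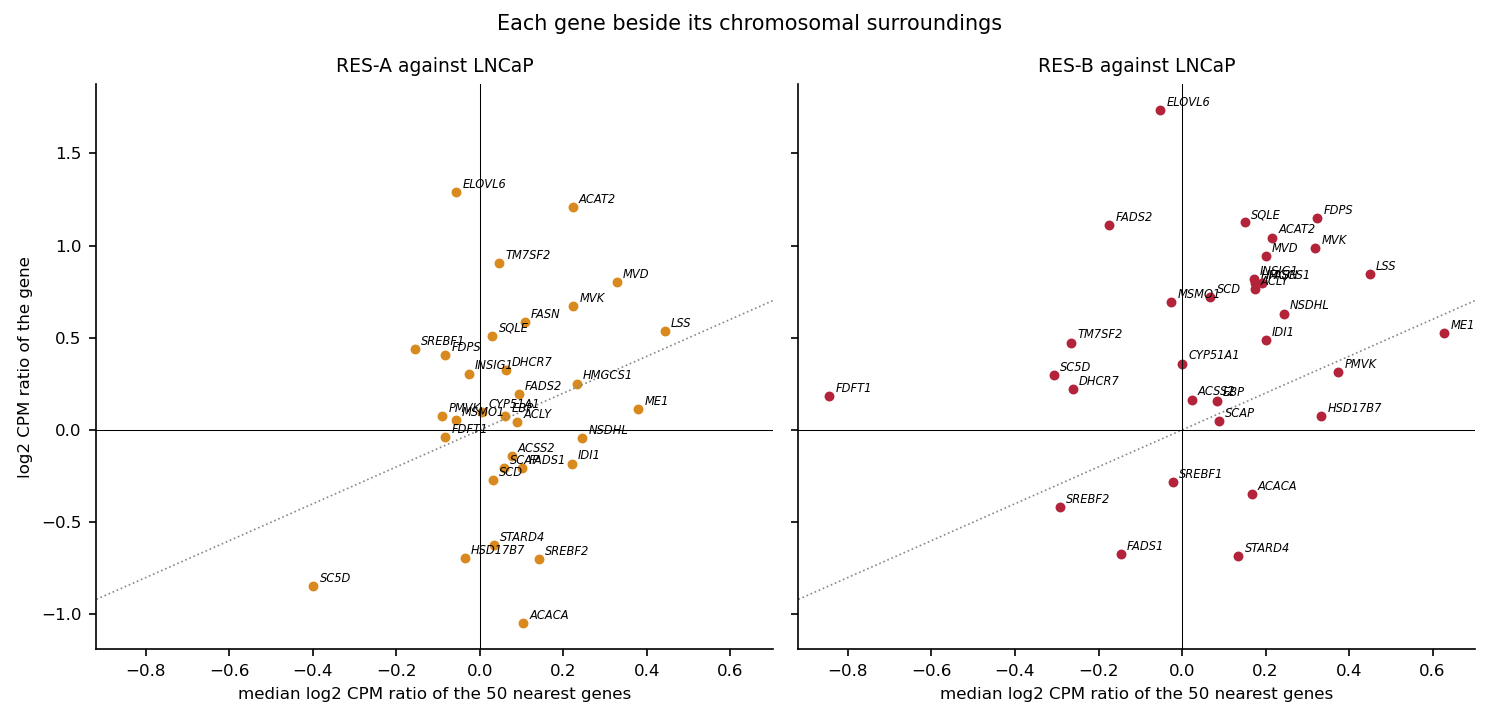
Log2 CPM ratio of each of the 32 genes (vertical) against the median ratio of the 50 nearest expressed genes (horizontal; 28 to 46 for genes near a chromosome's end) in the resistant lines against LNCaP; the dotted line marks equal values. In RES-B, 23 of 32 genes lie above the line, which was not counted over all genes, with ELOVL6 farthest above it and FDFT1 farthest left.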

How the data were processed

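Single-cell RNA was captured with the 10x 3' v3 chemistry, which counts molecules near the 3' end of transcripts. The authors deposited UMI counts per gene and cell barcode for each library, made with Cell Ranger 3.0.2 per the submitters' processing notes on GRCh38. Cells were kept by the limits on genes, UMIs and mitochondrial share that the study states for each library. UMIs were summed per library and scaled to CPM, and ratios carry exact conditional binomial 95% intervals. A library at 0 UMIs would be set to a floor of 3 UMIs. With 1 library per group no test and no p-value was computed, and intervals cover counting error only.

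Cells were thinned to 5000 UMIs for covariation and phases, with no kept cell left out, and correlations used log-normalised values. Free RNA was not removed. No doublet caller was run, and an alternative left out the highest-UMI cells (34 to 188 per library) at 0.8% per 1000 barcodes. Other alternatives were TMM and DESeq2 scaling, all barcodes, 1 wide filter, the limits shared by all libraries, G1 cells, minimum levels of 1 or 50 CPM, thinning to 2000 UMIs, and a minimum of 50 CPM for covariation. Ratios and intervals were tested on simulated data.

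The text names all 32 genes, the highest and lowest genes of 7 related lists, and the 10 genes outside them most tied to the sterol sum. The genes and lists were chosen with earlier results of these data known. Some genes of the pathway are not reported here. Tools were Python 3.11.15, numpy 2.4.6, pandas 2.3.3, scipy 1.17.1, scanpy 1.11.5, matplotlib 3.10.9, R 4.3.3, edgeR 4.0.16 (TMM factors only) and DESeq2 1.42.0 (size factors only).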

Additional observations from a re-analysis of the deposited data

Results flagged for a closer look

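In 4 of the 32 genes the resistant lines lay on opposite sides of LNCaP beyond counting error. Such cases were not counted over all genes, so it is not known whether 4 is many. Intervals clear of 0 were common. In RES-A, 3232 of 7428 genes had an interval above 0 and 2906 below. In RES-B these were 3870 and 2362 of 7570. On the log2 scale, RES-B against RES-A was at 1.15 [1.03, 1.26] for SC5D, 0.99 [0.94, 1.05] for SCD and 0.67 [0.60, 0.74] for IDI1. SREBF1 was the one with the reverse order, at -0.72 [-0.80, -0.65] in RES-B against RES-A. Each line was 1 library, so the difference was not tested against the spread between cultures.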

How the results depend on the processing

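No paired analysis was possible because each group had 1 library. Leaving out a replicate was not possible for the same reason. Of 896 values for single genes under the alternatives, 712 stayed within the reach of their counting interval and 184 moved. Turns of direction were counted only for genes called higher or lower, and there were 0. Smaller values did turn: in LNCaP-ENZ48, 24 genes lay below 0 with CPM scaling and 16 with TMM. For LNCaP-ENZ48 the median of all members (-0.13) became -0.0393 with TMM, -0.0334 with DESeq2 scaling and 0.0147 in the shared window. The sterol median (-0.16) became -0.0584 with DESeq2 scaling and -0.0534 in the shared window, and the fatty acid median (-0.07) became 0.0253, 0.0312 and 0.0470 with TMM, DESeq2 scaling and the shared window. For RES-A, genes called higher (3 of 27, 11.6% of all genes) became 8 of 27 in the shared window (15.9% of all genes), 5 of 32 with a minimum of 1 CPM (16.5%) and 1 of 11 with 50 CPM (11.97%), and genes called lower (4, 11.3%) became 2 in the shared window (12.9%) and 0 with 50 CPM (8.41%). Its shared window medians were 0.18 for all members and 0.20 for fatty acid genes. For RES-B, genes called higher (12 of 27, 14.4%) became 6 of 14 with 50 CPM (14.2%), and genes called lower (1, 8.14%) became 0 in the shared window (8.57%) and 2 with 1 CPM (11.5%). Its median (0.49) became 0.38 with TMM and 0.39 with DESeq2 scaling, the sterol median 0.37 and 0.38, and the fatty acid median 0.62 with both and 0.82 in the shared window. For RES-B against RES-A, genes called higher (11 of 28, 11.9%) became 7 of 29 in the shared window (12.6%) and 6 of 14 with 50 CPM (9.90%), and genes called lower (1, 5.87%) became 2 in the shared window (6.02%). Its median (0.43) became 0.26 in the shared window, 0.31 with 1 CPM and 0.33 with 50 CPM. The sterol median (0.55) became 0.42 in the shared window, 0.64 in G1 cells, 0.31 with 1 CPM and 0.23 with 50 CPM, and the fatty acid median (0.44) became 0.37 in the shared window and 0.73 with 50 CPM. A minimum level changes which genes are counted, and for the other alternatives the cause was not tested.

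The median sterol correlation in LNCaP (-0.000755) turned positive at 2000 UMIs (0.00307), in G1 cells (0.00486) and without the highest-UMI cells (0.00114), and was -0.0134 over the 10 pairs left with 50 CPM. In LNCaP-ENZ48 it became 0.00163 at 2000 UMIs, 0.00931 in G1 cells and 0.00716 with 50 CPM. In RES-A it became 0.000935 at 2000 UMIs and 0.00524 in G1 cells, and in RES-B 0.0138 at 2000 UMIs and 0.0103 with 50 CPM. RES-A was at 0.0103 with 50 CPM too, so the sterol median did not set RES-B apart from RES-A there. The fatty acid median at 2000 UMIs was 0.0237, 0.00882, 0.00423 and 0.0278 in LNCaP, LNCaP-ENZ48, then RES-A, then RES-B, and 0.102 in RES-B with 50 CPM. Thinning leaves fewer counts per gene, which limits correlations.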
